A study of Mus musculus with 8 samples.

Results

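The alpha-1 antitrypsin paralogs of the mouse are 5 neighbouring, near-identical genes, Serpina1a to Serpina1e, taken here by name from the table of 15210 genes; all 5 were listed and all 5 passed the filter on low values. The livers of 8 female mice of the F1-TKm30 line were profiled by RNA sequencing. The line has the immunodeficient NOG background, and both groups carry the HSVtk mutant clone 30 cDNA, a herpes simplex virus thymidine kinase, driven by the mouse transthyretin enhancer and promoter, which is active in hepatocytes. The 4 control mice received 0% and the other 4 mice 0.05% of 4,4'-Methylenebis(2-chlorobenzenamine) (MOCA), an aromatic amine that hardens polyurethane, for 4 weeks. Age was 17 or 21 weeks, without a record of which mouse had which age. The treatment text speaks of C57BL mice, whereas the strain field gives F1-TKm30, the name used here. Each mouse gave 1 ribosomal RNA-depleted library of 15024945 to 17101844 reads. Each MOCA library (15024945 to 15970453 reads) was shallower than each control library (16077424 to 17101844).

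Alpha-1 antitrypsin is a serine protease inhibitor (serpin) that hepatocytes secrete into plasma in large amounts. In humans it is best known as the inhibitor of neutrophil elastase: the protease cleaves an exposed reactive-centre loop and is trapped in the act. Humans have a single SERPINA1 gene, while mice carry several copies whose reactive-centre loops differ, and inbred strains of mice are known to differ in how many copies they have. The processing notes name the mm10 assembly, which comes from C57BL/6J. How many copies the mice studied carry is unknown here, which limits what the value of a single paralog stands for.

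The 5 genes lie within 228.7 kb of chromosome 12 (chr12:103728156-103956897, mm10), all on the minus strand, in the order Serpina1b, Serpina1d, Serpina1a, Serpina1c and Serpina1e. Serpina1a spans chr12:103853295-103863619, Serpina1b chr12:103728156-103738189, Serpina1c chr12:103894926-103904950, Serpina1d chr12:103763587-103773633 and Serpina1e chr12:103946931-103956897. Their coding sequences (GENCODE M21, GRCm38) have the same length, 1239 bases, and can be laid side by side without gaps. At 1153 of these positions (93.06%) all 5 carry the same base. Serpina1a and Serpina1c are the closest pair, with 19 differing bases (98.47% identity); every other pair differs at 37 to 46 bases.

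Of the 86 coding positions that vary, 18 fall within 60 bases of the fourth and last coding exon, the most of any 60-base stretch (the median stretch holds 4). This stretch encodes part of the reactive-centre loop, and it is shown because it is where a read tells the paralogs apart most easily. Capitals mark the positions at which the 5 genes differ; each line is the coding strand, bases 1101 to 1160 of the coding sequence counted from the A of the start codon.
Serpina1a (chr12:103853757-103853816): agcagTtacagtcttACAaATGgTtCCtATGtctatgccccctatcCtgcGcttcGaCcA
Serpina1b (chr12:103728324-103728383): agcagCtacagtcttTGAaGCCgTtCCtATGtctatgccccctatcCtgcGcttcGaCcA
Serpina1c (chr12:103895094-103895153): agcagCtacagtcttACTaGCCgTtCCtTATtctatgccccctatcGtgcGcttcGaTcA
Serpina1d (chr12:103763762-103763821): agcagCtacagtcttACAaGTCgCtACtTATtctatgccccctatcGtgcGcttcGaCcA
Serpina1e (chr12:103947100-103947159): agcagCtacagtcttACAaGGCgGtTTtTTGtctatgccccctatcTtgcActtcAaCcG
Within this stretch Serpina1c and Serpina1d differ at 5 bases, and Serpina1e differs from each other paralog at 10 to 12.

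How far reads can be told apart was measured on 1 GENCODE transcript per gene, by counting the stretches of a fixed length that occur in no transcript of another Serpina1 gene (Serpina1a to Serpina1f). At 100 bases, 41.95% of the stretches of Serpina1a and 41.52% of those of Serpina1c were unique. The shares were 75.37% for Serpina1b, 73.67% for Serpina1d and 85.23% for Serpina1e. At 50 bases they were 27.84%, 55.02%, 26.68%, 51.97% and 64.42% for Serpina1a to Serpina1e in turn. Neither the read length nor the handling of reads that match several genes is given in the sources used here, so the split of reads between the paralogs, above all between Serpina1a and Serpina1c, is uncertain. Their sum does not depend on how shared reads were split, but it would miss reads that were discarded for matching several genes.

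**Figure D1:**
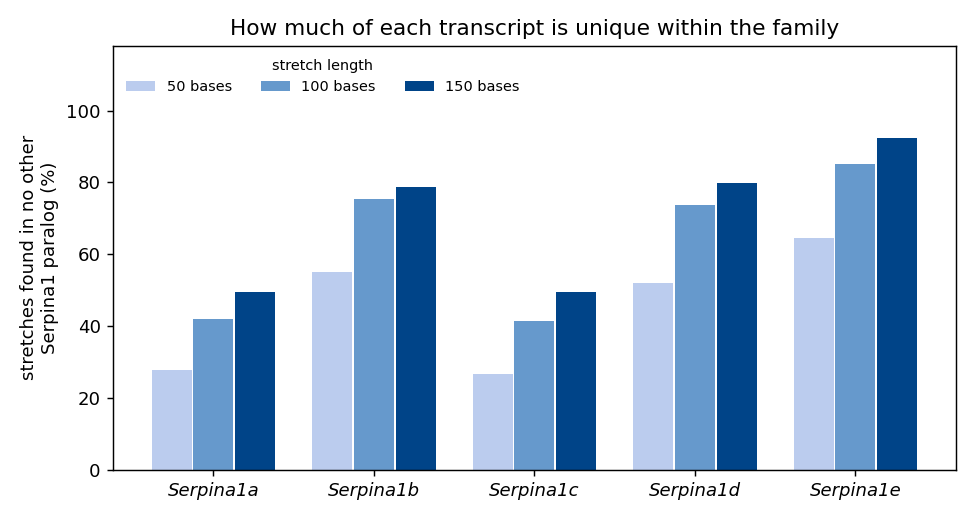
Share (%) of all stretches of 50, 100 or 150 bases of each paralog's transcript that occur in no transcript of another Serpina1 gene. The bars of Serpina1a and Serpina1c stay below 50%, and at 100 bases the other 3 genes lie between 73.67% and 85.23%.

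The promoters are alike as well in the stretch compared. It was placed on a short motif that each promoter sequence holds once, and the rest of the promoters was not compared. The 96 bases below (RefSeq, GRCm38.p6, minus strand) end 0 to 62 bases before the annotated start of each gene, and the 5 genes share 86 of them. They are shown because the family members can be set side by side there; capitals mark the positions at which the 5 genes differ.
Serpina1a (chr12:103863625-103863720): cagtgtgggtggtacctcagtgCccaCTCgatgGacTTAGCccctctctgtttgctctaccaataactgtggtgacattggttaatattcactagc
Serpina1b (chr12:103738200-103738295): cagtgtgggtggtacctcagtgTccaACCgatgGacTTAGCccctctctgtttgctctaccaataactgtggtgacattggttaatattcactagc
Serpina1c (chr12:103904962-103905057): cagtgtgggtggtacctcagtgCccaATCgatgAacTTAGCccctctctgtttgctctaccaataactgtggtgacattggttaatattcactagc
Serpina1d (chr12:103773634-103773729): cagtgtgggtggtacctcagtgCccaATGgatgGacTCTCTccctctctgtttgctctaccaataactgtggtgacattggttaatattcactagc
Serpina1e (chr12:103956960-103957055): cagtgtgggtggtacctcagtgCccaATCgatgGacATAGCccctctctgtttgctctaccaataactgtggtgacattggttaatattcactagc
Serpina1d is the least like the others in this window, with 89 or 90 of 96 bases shared with each, against 93 or 94 in every other pair.

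Values below are TMM-scaled CPM, a read count that the authors scaled to library size and then between libraries; a single read counted for 0.0581 to 0.0648 of these units. The family took 1.03% to 1.51% of each library's total. Serpina1a, Serpina1b and Serpina1c together held 97.6% to 98.3% of the family sum in every mouse. Per kilobase of transcript, control livers held 3987 ± 258 of Serpina1c, 3427 ± 272 of Serpina1b, 2688 ± 306 of Serpina1a, 173 ± 33.0 of Serpina1d and 4.97 ± 1.08 of Serpina1e (SD, n = 4). On this scale the control values of Serpina1c (3811 to 4370.4) all lay above those of Serpina1b (3129 to 3718), while those of Serpina1b and Serpina1a (2458 to 3137) overlapped. In MOCA livers the levels per kilobase of Serpina1b (2944 ± 342) and Serpina1c (2929 ± 483) did not differ beyond their spread, and Serpina1a was at 2049 ± 294, Serpina1d at 162 ± 39.1 and Serpina1e at 6.01 ± 1.26. Serpina1e thus stood far below its neighbours in both groups, with 97 to 179 reads per library against 38711 to 99120 for the 3 abundant members.

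The comparison of MOCA with control livers asks how the compound changes liver expression. The summed value of the 5 paralogs was 13108, 14292, 13506 and 15532 in control mice 1 to 4 and 10985, 10422, 13285 and 9761 in MOCA mice 1 to 4. MOCA mouse 3 lay just above control mouse 1, and the other 3 MOCA mice lay below every control mouse. The mean was 14109 ± 1068 in control and 11113 ± 1532 in MOCA livers (SD, n = 4). This is a difference of -21.2% and of -0.35 on the log2(value + 1) scale, given without a p-value. Without MOCA mouse 3 the difference was -26.4% and the groups did not overlap, as was so in 6.81% of tested genes. Without control mouse 1 they did not overlap either, at -23.1%. Only these mice overlapped, so leaving out either had to separate the groups. With any other mouse left out the groups still overlapped. In bulk liver, fewer hepatocytes and less RNA per hepatocyte cannot be told apart.

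None of the 5 paralogs passed the test across all genes (limma, Benjamini-Hochberg adjusted p under 0.05), which called 80 of 12008 tested genes, or 0.666%. By edgeR's quasi-likelihood test on the recovered reads none passed either (0.675% of tested genes called). DESeq2, which called 425 genes or 3.61% (1.72% toward lower values), called Serpina1a and Serpina1c lower. At an unadjusted p under 0.05 limma held 2 of the 5, against 17.5% of all tested genes. Of the 5 log2 fold changes 4 were negative, against 48.9% over all tested genes, with a median of -0.22 beside 0.01 over all tested genes. In Serpina1a and Serpina1c every MOCA value lay below every control value, as it did in 4.96% of tested genes. These are the pair with the fewest unique stretches. They may share reads, so they cannot be taken as independent of each other. Of the 80 calls 48 were higher and 32 lower in MOCA livers, a split that became 132 and 39 with equal column sums and 45 and 51 with upper quartile scaling.

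Serpina1c, the most abundant member in control livers, had values of 5187, 5316, 5256 and 5948 in control mice 1 to 4 and of 3698, 3754, 4962 and 3530.3 in MOCA mice 1 to 4. The groups did not overlap, with MOCA mouse 3 nearest to the control range. The means were 5427 ± 352 and 3986 ± 658, a log2 fold change of -0.46 (SE 0.13, 95% interval -0.73 to -0.18, limma adjusted p = 0.117). Among the 5, it had the lowest adjusted p, and DESeq2 gave an adjusted p of 0.00639.

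Serpina1a was at 3343, 3557, 3459 and 4266 in control mice 1 to 4 and at 2744, 2711, 3329 and 2365 in MOCA mice 1 to 4. Again no value overlapped, and the gap was narrow, between 3329 in MOCA mouse 3 and 3343 in control mouse 1. Its means of 3656 ± 416 and 2787 ± 400.0 gave a log2 fold change of -0.40 (SE 0.13, 95% interval -0.67 to -0.12, limma adjusted p = 0.158, DESeq2 adjusted p = 0.0304).

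Serpina1b measured 4362, 5183, 4565 and 5000.2 in control mice 1 to 4 and 4310.3, 3766, 4677 and 3663 in MOCA mice 1 to 4. MOCA mouse 3 exceeded 2 control mice, and the other 3 MOCA mice lay below all control mice. Its means of 4778 ± 379 and 4104 ± 476 gave a log2 fold change of -0.22 (SE 0.12, 95% interval -0.48 to 0.03, limma adjusted p = 0.35). Without MOCA mouse 3 the groups did not overlap for Serpina1b, which had to follow because no other MOCA mouse overlapped. With this same mouse left out, 6.81% of all tested genes were separated toward lower values. The mouse was picked for its values in this family, so that share is not a like background.

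Serpina1d, far less abundant, was at 209, 226, 221 and 309.5 in control mice 1 to 4 and at 222, 185, 305 and 194 in MOCA mice 1 to 4. The groups overlapped throughout, with 1 high mouse in each, control mouse 4 and MOCA mouse 3. The log2 fold change was -0.10 (SE 0.16, 95% interval -0.45 to 0.25, limma adjusted p = 0.784), and it was 0.02 without control mouse 4. Serpina1e was at 7.15, 9.98, 5.99 and 8.22 in control mice and at 10.2, 6.90, 11.6 and 9.10 in MOCA mice, the single member with a higher mean in MOCA livers. That difference was within the spread between mice (log2 fold change 0.24, SE 0.17, 95% interval -0.12 to 0.60, limma adjusted p = 0.48). The intervals of Serpina1b and Serpina1d include 0 and also the change of Serpina1a; whether the members differ from each other in their change was not tested.

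**Figure D2:**
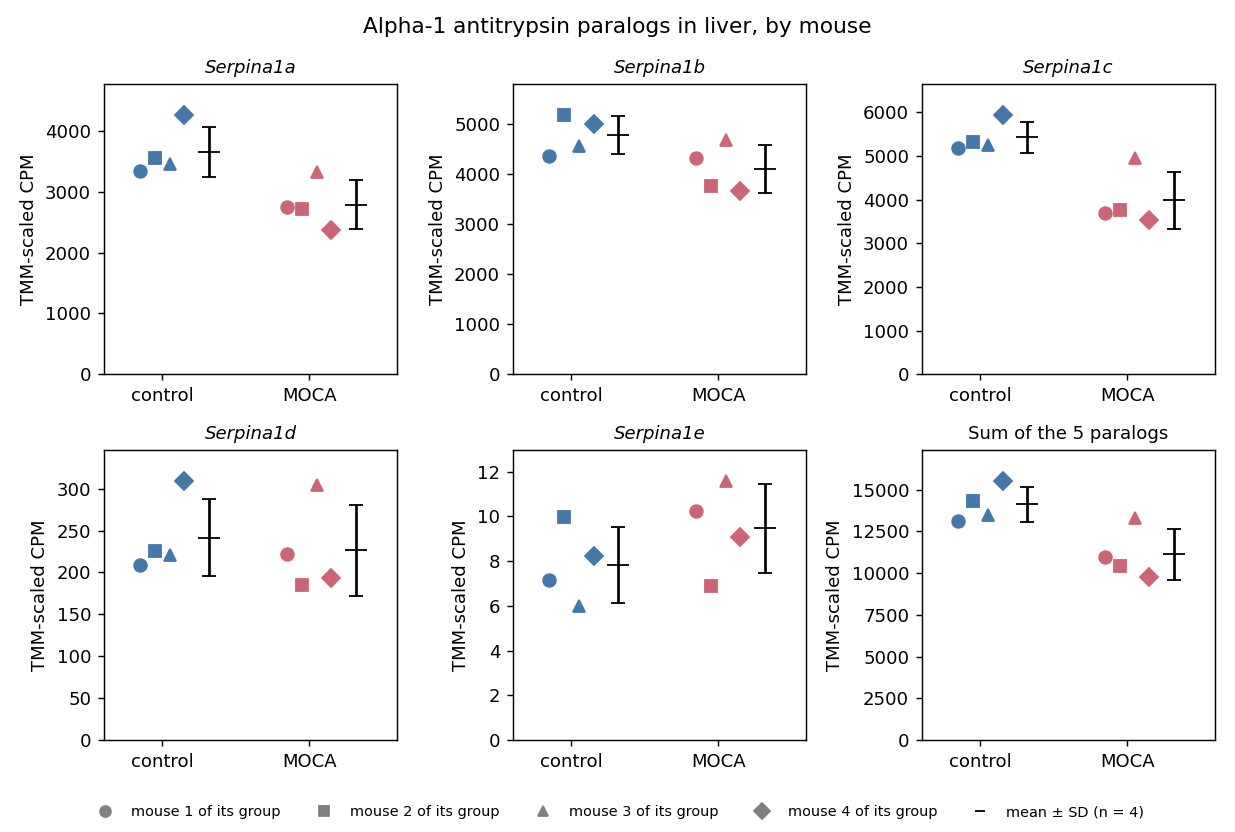
TMM-scaled CPM of each paralog and of their sum in the 4 control (blue) and 4 MOCA (red) livers; symbols give the mouse number within its group, which does not pair mice, and black marks give mean ± SD. For Serpina1a and Serpina1c all MOCA values lie below all control values, and MOCA mouse 3 is the highest MOCA mouse in every panel.

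The members ranked the mice alike in part. MOCA mouse 3 had the highest MOCA value of all 5 genes. Control mouse 4 had the highest control value of Serpina1a, Serpina1c and Serpina1d, while control mouse 2 had that of Serpina1b and Serpina1e. MOCA mouse 4 was the lowest of all 8 mice for Serpina1a, Serpina1b, Serpina1c and the sum. The coefficient of variation among control mice was 6.48% for Serpina1c, 7.94% for Serpina1b and 11.4% for Serpina1a, against 19.0% for Serpina1d and 21.7% for Serpina1e.

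Serpina1c held 39.6%, 37.2%, 38.9% and 38.3% of it in control mice 1 to 4 and 33.7%, 36.0%, 37.4% and 36.2% in MOCA mice 1 to 4. Only MOCA mouse 3 reached into the control range, at its lower end. The share of Serpina1b was 33.3%, 36.3%, 33.8% and 32.2% in control and 39.2%, 36.1%, 35.2% and 37.5% in MOCA mice, with control mouse 2 inside the MOCA range. Serpina1c exceeded Serpina1b in all 4 control mice, by ratios of 1.03 to 1.19, and in 1 of 4 MOCA mice, where the ratios ran from 0.858 to 1.06. Serpina1a held 25.9% ± 1.11 in control and 25.1% ± 0.73 in MOCA livers, Serpina1d 1.70% ± 0.196 and 2.02% ± 0.213, and Serpina1e 0.0554% ± 0.0106 and 0.0850% ± 0.0129 (SD, n = 4). For each of the 5 shares the groups overlapped, and no share was tested; how reads were divided among the paralogs enters all of them.

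**Figure D3:**
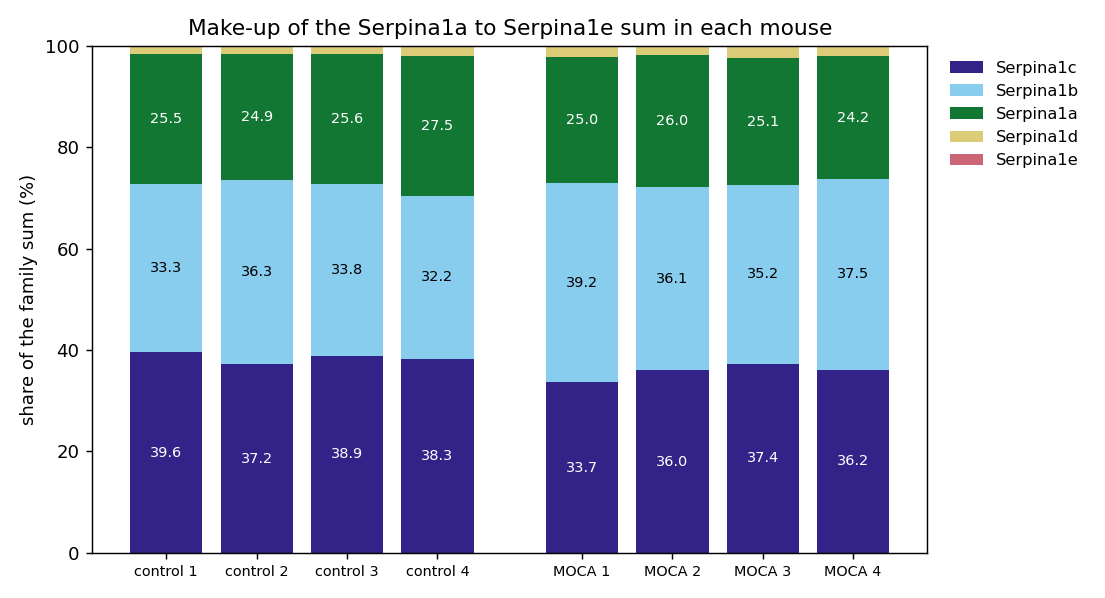
Percent of the summed Serpina1a to Serpina1e value held by each paralog, 1 bar per mouse, with the shares of the 3 abundant members printed. Serpina1c takes 37.2% to 39.6% in control and 33.7% to 37.4% in MOCA mice; Serpina1e, at most 0.0933%, is too small to see.

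The family is expressed by hepatocytes, and the 8 hepatocyte markers on the list, albumin (Alb) among them, were all listed at high levels. Their summed value was 120543 to 142051 in control and 105954 to 120939.7 in MOCA livers, with negative log2 fold changes in all 8 and no call. Transferrin (Trf), at 21029 ± 2065 and 16088 ± 1091, and apolipoprotein B (Apob), at 15455 ± 318 and 13485 ± 629, were lower in every MOCA mouse than in every control mouse (limma adjusted p = 0.218 and 0.455). Such a separation was found in 4.96% of all tested genes, of which 48.9% had a negative log2 fold change. Alb alone was 65245 ± 6800 and 61797 ± 3989 (limma adjusted p = 0.887). The family sum relative to Alb was 0.218 ± 0.0286 in control and 0.180 ± 0.0273 in MOCA livers, and the groups overlapped. In control and MOCA livers the sums of the endothelial markers were 298 to 357 and 287 to 298, and of the stellate markers 421 to 468 and 347 to 424. Those of the cholangiocyte markers were 40.5 to 49.5 and 36.3 to 54.9, and of the macrophage markers 192 to 242 and 199.7 to 267. Reln (247 ± 21.3 and 201 ± 11.1) weighed most in the stellate sum. Of the 5 stellate log2 fold changes 3 were negative and 2 positive. The part of these markers, and of the lower depth of the MOCA libraries, in the family's values was not tested.

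Other genes of the same serpin clade, most of them in the same cluster on chromosome 12, showed no common direction. Of 20 on the list 16 were listed and 13 tested, with 0 called by limma, 7 negative and 6 positive log2 fold changes and 1 at an unadjusted p under 0.05; the median was -0.0005. That 1 gene was Serpina11, the next annotated serpin beyond Serpina1e, at 224, 235, 186 and 252 in control mice 1 to 4 and 154, 177, 204 and 122 in MOCA mice 1 to 4. MOCA mouse 3 was again the highest MOCA mouse and overlapped the control range (log2 fold change -0.47, SE 0.15, adjusted p = 0.153). Serpina7, the thyroxine-binding globulin gene on chromosome X, was 30.2 ± 1.58 and 26.3 ± 3.66 (adjusted p = 0.323). Serpina1f was not among the genes listed.

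Serpins of other clades that the liver secretes had negative log2 fold changes in all 5 tested of 6, with 0 called, 2 at an unadjusted p under 0.05 and a median of -0.21. Of all tested genes, 48.9% had a negative log2 fold change, and limma held 17.5% at that unadjusted p. Groups without overlap and with MOCA lower were found in 4.96% of tested genes. Serpinf1, which encodes pigment epithelium-derived factor, was 615 ± 55.9 in control and 477 ± 40.4 in MOCA livers, without overlap (log2 fold change -0.37, adjusted p = 0.0831). Serping1, the C1 inhibitor, was 940 ± 81.6 and 771 ± 13.4, also without overlap (-0.28, adjusted p = 0.125). The 18 acute phase genes, a class to which alpha-1 antitrypsin belongs in humans, held 0 higher and 1 lower, with 13 negative log2 fold changes and a median of -0.07. In either direction, limma called 0.666% of all tested genes. Itih3, an inter-alpha-trypsin inhibitor chain, was the 1 gene called lower, at 958 ± 30.1 in control and 603 ± 61.5 in MOCA livers (-0.67, limma adjusted p = 0.00778). Complement C3 was 14580 ± 1021 and 9996 ± 423 without overlap (-0.54, adjusted p = 0.0726).

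**Figure D4:**
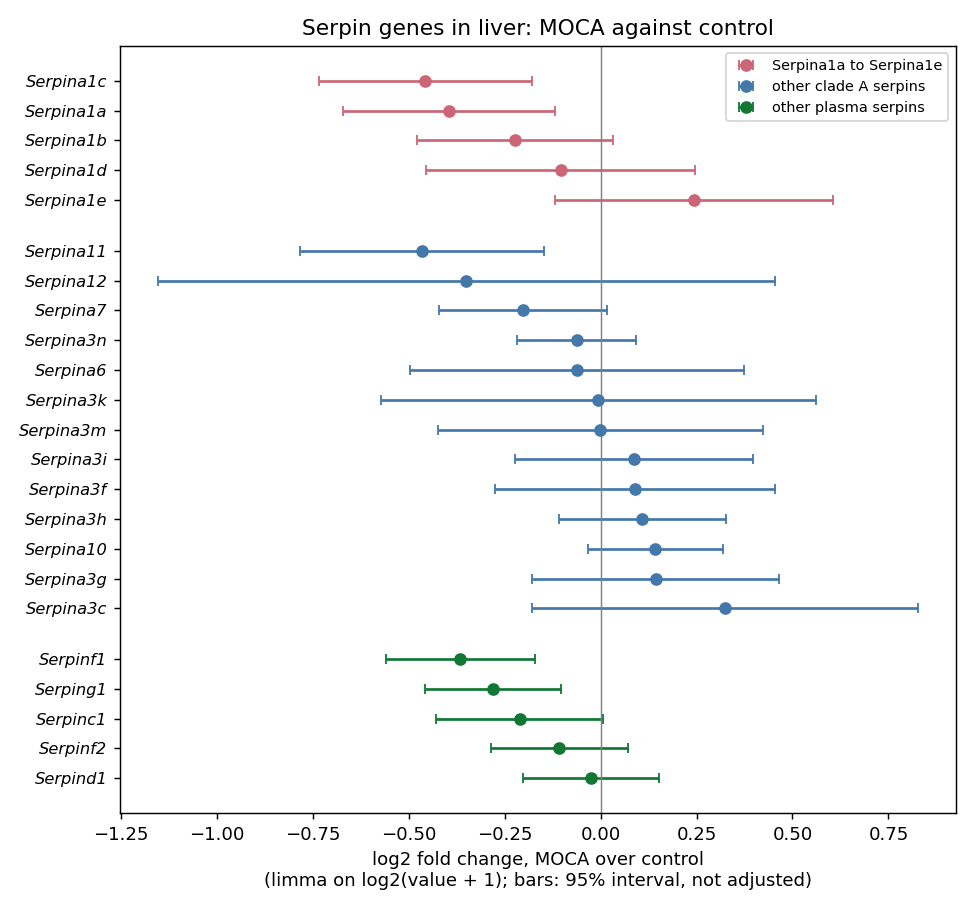
Change from control to MOCA livers, as limma's log2 fold change of value + 1, for the 5 paralogs (red), 13 other clade A serpins (blue) and 5 other plasma serpins (green), with 95% intervals from limma that are not adjusted for the number of genes. The intervals of Serpina1a, Serpina1c, Serpina11, Serpinf1 and Serping1 lie below 0, and none of the 23 genes passed the adjusted threshold.

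Transcription factors that act on the alpha-1 antitrypsin promoter or on hepatocyte genes at large were tested in 11 members, with 0 called, 8 negative log2 fold changes, 2 at an unadjusted p under 0.05 and a median of -0.15. Among all tested genes, 48.9% of log2 fold changes were negative and limma held 17.5% at that unadjusted p. Onecut1, a cut-homeobox factor of hepatocytes, was 19.6, 16.6, 33.6 and 16.6 in control mice 1 to 4. In MOCA mice 1 to 4 it was 7.25, 12.4, 12.2 and 10.9. All its MOCA values lay below all control values, as in 4.96% of tested genes (-0.92, SE 0.22, limma adjusted p = 0.0797). Foxa3, a forkhead factor, was 57.9 ± 2.58 and 45.8 ± 12.03 (adjusted p = 0.273).

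Genes that fold alpha-1 antitrypsin in the endoplasmic reticulum, carry it out or degrade its misfolded form had positive log2 fold changes in 15 of 16, with 0 called, 4 at an unadjusted p under 0.05 and a median of 0.13. Over all tested genes 48.9% of log2 fold changes were negative, and limma held 17.5% at that unadjusted p. MOCA mouse 3 stood above the other MOCA mice for Hspa5 (1205 against 570 to 731) and Syvn1 (232 against 90.4 to 117). For Calr it did not (713 against 735 in MOCA mouse 2). How far the common direction rests on this mouse was not tested. Lman1, a cargo receptor from the endoplasmic reticulum to the Golgi, was 208 ± 14.9 in control and 251 ± 15.7 in MOCA livers, with every MOCA value higher, as in 5.5% of tested genes (log2 fold change 0.27, adjusted p = 0.112). Os9, a lectin of misfolded glycoprotein disposal, was the single negative one, at 223 ± 16.5 and 181 ± 7.41 (-0.30, adjusted p = 0.0831). Its groups did not overlap, as in 4.96% of tested genes toward lower values. Of the proteases that alpha-1 antitrypsin inhibits, Elane and Ctsg were not among the genes listed, Prtn3 stayed at or below 0.194, and St14 was at low levels in every mouse (0.555 to 1.15); none passed the filter for testing. The 5 listed of 7 neutrophil markers summed to 0.679 to 1.74 in control and 0.70 to 1.81 in MOCA livers, and 0 of 6 lymphocyte markers were listed, in mice whose background lacks mature lymphocytes.

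The genes whose profile over the 8 mice was most like that of the family sum were sought among the other 12003 tested genes, by the root mean square difference of log2 values centred on each gene's mean. They were Atg10, an autophagy enzyme (0.0798), Cyp2e1, a pericentral cytochrome P450 (0.0827), Rfxap, a regulator of MHC class II genes (0.0838), Fam53a (0.0978) and Apoe, apolipoprotein E (0.0980). Atg10 lay at low values, 3.02 ± 0.304 in control and 2.14 ± 0.140 in MOCA livers. There the 1 added before the log2 shrinks a change: -29.0% gave -0.35, as -21.2% did in the sum. The median over all compared genes was 0.266, and a gene that did not vary at all would have had 0.221. Apoe was 15201 ± 1183 in control and 11723 ± 913 in MOCA livers without overlap (log2 fold change -0.37, limma adjusted p = 0.194). Such a separation toward lower values was found in 4.96% of tested genes. These genes were picked as the nearest of many over 8 mice, and no test was made of the likeness.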

How the data were processed

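The data are 1 deposited table that holds, for 15210 genes and 8 mice, a scaled signal that the file calls normalised counts. The submitters' processing notes list mm10 and the tools Trimmomatic 0.38, Bowtie2, RSEM and edgeR, and give them no role. Each column is a whole number of reads times a constant (100% of values, within 0.001). Reads were recovered by dividing by it, and the constants are those of TMM-scaled CPM as recomputed with edgeR.

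Groups were compared with limma 3.58.1 (R 4.3.3), by lmFit and eBayes with trend and no covariate, on log2 of the value plus 1. Of the genes, 12008 reached 1 in at least 4 libraries and were tested, with Benjamini-Hochberg adjustment over all of them and a threshold of 0.05. As alternatives, edgeR 4.0.16 and DESeq2 1.42.0 were run on recovered reads, besides the settings in the closing section. The mice are separate samples by label; replicates differed by more than sampling noise, with a chi-square of 12.5 to 26.9 times its degrees of freedom.

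The members and lists were chosen with earlier results of these data known. Named genes are the 5 paralogs, each list's called genes and its 2 genes with the smallest p (of marker lists, sums are given), and the 5 genes nearest in profile. Some other list members are named to show how single mice or members differ from their list. Positions come from RefSeq (GRCm38.p6), coding sequences from GENCODE M21, and promoters from RefSeq, matched by symbol for all 5.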

Additional observations from a re-analysis of the deposited data

Results flagged for a closer look

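In 4 of 22 sets of 4 values (5 paralogs, their sum and 5 shares, in each group), 1 mouse stood apart from the other 3 by more than Dixon's limit; chance does so in about 1 of 20 sets. Control mouse 4 was high for Serpina1c (5948), for Serpina1d (309.5) and for the share of Serpina1d in the sum (1.99%). MOCA mouse 3 was high for Serpina1c (4962). These sets share mice and reads and are not independent of each other.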

How the results depend on the processing

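The count of 80 called genes became 171 with equal column sums, 425 with DESeq2 and 30 with the replicate block, and ranged from 29 to 77 when 1 mouse was left out. Mouse numbers are not said to pair mice, and deviations of same-numbered mice correlated at -0.0735 to 0.036, so the block has no basis in the design; under it 28 of the 80 calls were kept, and the adjusted p of Serpina1a was 0.251 and of Serpina1c 0.213. Serpina1a (-0.39) and Serpina1c (-0.45 on the log2 scale) passed with DESeq2 alone among the settings tried. When 1 mouse was left out, the log2 fold changes ran from -0.48 to -0.32 for Serpina1a, -0.29 to -0.17 for Serpina1b, -0.57 to -0.40 for Serpina1c, -0.26 to 0.02 for Serpina1d, turning positive (0.0217) without control mouse 4, and 0.14 to 0.37 for Serpina1e, and the difference of the sum from -0.44 to -0.29. Replacing the paralogs by their sum in the table left 80 calls, all of them calls of the main fit, so the sum itself was not called. The cause of these changes was not tested. Serpina1e rests on the fewest reads, 97 to 179 per library. The p-values set a difference between groups against the spread between mice of the same group, among these 8 mice only.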
